A study of Mus musculus with 17 samples.

Results

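The replication-dependent histone genes are here the 67 protein-coding genes of the mouse annotation (GENCODE vM21, GRCm38/mm10) whose symbols begin with Hist1h, Hist2h, Hist3h or Hist4h. They were chosen by symbol alone, of 21755 protein-coding genes on chromosomes 1 to 19 and X. They encode 6 linker histones (H1) and 18 H2A, 18 H2B, 12 H3 and 13 H4 core histones. To ask whether their promoters lie in open chromatin in neurons, and whether this differed by cocaine, sex or estrous stage, ATAC-seq peaks within 1 kb of each gene's annotated 5′ end were compared in 17 libraries.

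ATAC-seq uses a transposase to insert sequencing adapters into accessible DNA. Neuronal (NeuN+) nuclei were sorted from the bilateral nucleus accumbens (NAc), a reward area of the ventral forebrain, of C57BL/6 mice (C57BL/6J in the study's methods) aged 52 to 54 days, and each library pooled tissue of 3 animals. Females in diestrus (low estrogen) or proestrus (high estrogen) and males were either controls or had received 10 mg/kg cocaine intraperitoneally and were sampled 1 hour later. By the study's methods, controls were not given cocaine and formed the baseline time point, and no vehicle injection is described. A difference by cocaine thus cannot be told apart from one by injection, handling or the 1 hour that passed. There were 3 control and 3 cocaine libraries from diestrus females, the same numbers from proestrus females, and 3 control and 2 cocaine libraries from males. The proestrus cocaine libraries are numbered 1, 2 and 4, and diestrus cocaine library 2, whose stage label is blank, was placed in its group by its title.

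Replication-dependent histone genes supply the proteins that package newly made DNA, and in dividing cells their mRNAs accumulate in S phase. Most lack introns, their mRNAs end in a conserved stem-loop in place of a poly(A) tail, and many H2A and H2B genes stand head to head over a shared promoter. Neurons have left the cell cycle, and histone genes that lie outside the clusters, such as those of H3.3 and H2A.Z, are known to supply much of their new histone protein.

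Neighbouring genes less than 100 kb apart formed 7 groups. The Hist1 cluster on chromosome 13 comprised groups of 18 genes (chr13:21715763-21837530), 5 genes (chr13:22035164-22043676), 29 genes (chr13:23531050-23764406) and 2 genes (chr13:23933773-23934851). The Hist2 cluster held 10 genes (chr3:96219865-96270132), the Hist3 cluster 2 genes (chr11:58948920-58956830), and Hist4h4 stood alone on chromosome 6. The start region of 7 genes is shown to set the promoters of genes called in every library beside those of genes with few or no calls. Each line gives the 160 bases before the transcription start of RefSeq (GRCm38.p6), read 5′ to 3′ along the gene. Capitals mark CCAAT boxes (CCAAT), TATA boxes (TATAAA), octamers (ATTTGCAT) and the H1 box (AAACACA), each on either strand. Hist1h2ac, Hist1h4c, Hist1h1a and Hist1h1c had a peak in every library. Hist1h1t and Hist1h2aa are genes of the testis, and Hist1h2bq is one of 4 genes whose surroundings are repeated elsewhere in the genome.
Hist1h2ac (chr13:23683960-23684119, minus strand): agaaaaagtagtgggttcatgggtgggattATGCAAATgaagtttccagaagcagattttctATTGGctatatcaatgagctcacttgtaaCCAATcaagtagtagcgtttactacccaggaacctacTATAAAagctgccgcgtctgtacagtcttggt
Hist1h4c (chr13:23698459-23698618, minus strand): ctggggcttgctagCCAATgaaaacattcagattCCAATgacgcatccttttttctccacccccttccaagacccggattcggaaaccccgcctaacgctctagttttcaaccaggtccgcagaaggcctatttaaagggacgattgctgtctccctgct
Hist1h1a (chr13:23763508-23763667, plus strand): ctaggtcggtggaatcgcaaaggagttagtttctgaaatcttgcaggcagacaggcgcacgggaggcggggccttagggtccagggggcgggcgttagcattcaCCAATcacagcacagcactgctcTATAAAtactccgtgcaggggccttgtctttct
Hist1h1c (chr13:23738647-23738806, plus strand): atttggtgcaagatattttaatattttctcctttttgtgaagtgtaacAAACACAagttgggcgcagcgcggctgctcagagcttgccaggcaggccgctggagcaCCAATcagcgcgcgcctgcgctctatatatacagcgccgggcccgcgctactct
Hist1h1t (chr13:23695651-23695810, plus strand): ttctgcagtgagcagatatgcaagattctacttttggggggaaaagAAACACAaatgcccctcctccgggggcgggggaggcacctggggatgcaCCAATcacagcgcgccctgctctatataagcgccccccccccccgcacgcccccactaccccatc
Hist1h2aa (chr13:23934277-23934436, plus strand): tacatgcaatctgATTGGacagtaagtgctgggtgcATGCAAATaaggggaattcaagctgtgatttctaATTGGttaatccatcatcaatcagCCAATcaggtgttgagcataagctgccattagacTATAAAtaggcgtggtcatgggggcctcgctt
Hist1h2bq (chr13:21810200-21810359, minus strand): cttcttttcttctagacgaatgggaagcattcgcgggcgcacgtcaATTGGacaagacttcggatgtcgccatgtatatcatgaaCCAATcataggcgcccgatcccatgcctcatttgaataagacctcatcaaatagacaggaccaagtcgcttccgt

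These motifs are described over the RefSeq promoters of 62 of the 67 genes, from 250 bases before to 50 bases after the start, with both strands searched. No RefSeq promoter was matched for Hist1h2bc, Hist1h3a, Hist1h3f, Hist2h2be and Hist2h4. A CCAAT box was present in 53 of 62 histone promoters (85.5%), against 37.4% of all 32851 promoters. It was present in all 6 H1, 18 H2A, 16 H2B and 10 H3 promoters but in only 3 of 12 H4 promoters. A TATAAA was found in 35 of 62 (56.5%), against 13.6% of all promoters. The octamer, a binding sequence of Oct-1, was found in 7 of 18 H2A and 6 of 16 H2B promoters and in no H1, H3 or H4 promoter, against 1.74% of all promoters. The H1 box was found in 5 of 6 H1 promoters, all but that of Hist1h1a, against 7.18% of all promoters. The AP-1 sequence TGANTCA, the site of Fos and Jun proteins, was found in 3 of 62 (4.84%, against 7.81%), namely Hist1h2bl, Hist1h2ai and Hist1h1b. The cAMP response element TGACGTCA was found in 4 of 62 (6.45%, against 1.79%), namely Hist1h2ag, Hist1h2bj, Hist1h4h and Hist1h4a. No motif contains another, though neighbouring matches may share bases, and a match is a description of letters only. Head-to-head genes have overlapping promoter stretches, so that the same bases can be counted at both genes. Such pairs include Hist1h2bl and Hist1h2ai for AP-1 and Hist1h2ag and Hist1h2bj for the cAMP response element. The sequence CTTTTCAGA, from the histone mRNA stem-loop, occurred within 150 bases of the annotated gene end, in the sense orientation, in 26 of 67 histone genes (38.8%) and 0.400% of all genes. By type it was found in 2 of 6 H1, 13 of 18 H2A, 6 of 18 H2B, 5 of 12 H3 and 0 of 13 H4 genes. Only these exact letters were searched, so their absence does not mean that a stem-loop is absent.

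Most histone gene promoters were open in every library. A peak was called at 59 of the 67 promoters (88.1%) in all 17 libraries, compared with 11290 of 21755 protein-coding genes (51.9%). No peak was called in any library at 6 histone genes (8.96%), against 7738 of all genes (35.6%). The other 2 were Hist1h1d, called in 14 libraries, and Hist1h1t, called in 1. Each library thus held calls at 59 to 61 histone promoters. All 12 H3 and 13 H4 genes were called in every library, as were 15 of 18 H2A, 15 of 18 H2B and 4 of 6 H1 genes. The map of calls and percentiles by library shows the uncalled genes as grey rows.

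**Figure D1:**
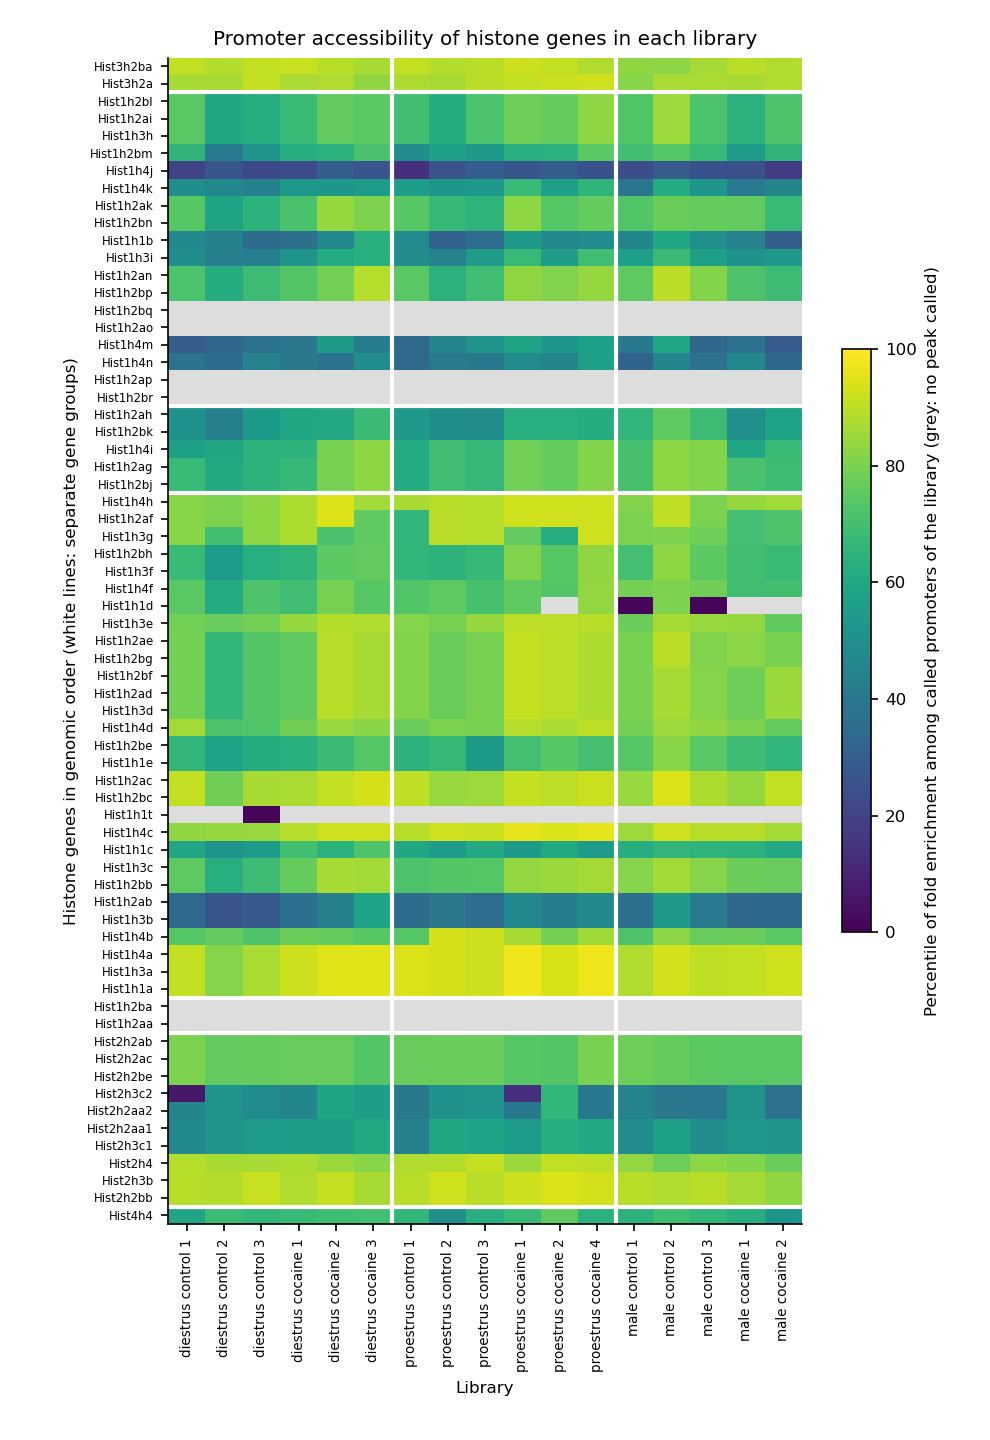
Each row is 1 of the 67 histone genes in genomic order and each column 1 of the 17 libraries. Colour gives the percentile (0 to 100) of the promoter's fold enrichment among all called promoters of that library and grey means no peak within 1 kb. Grey rows are Hist1h2bq, Hist1h2ao, Hist1h2ap, Hist1h2br, Hist1h2ba and Hist1h2aa, and neighbours that share a peak have identical colours.

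Of the 6 genes without a call, Hist1h2ba and Hist1h2aa form the group at chr13:23933773-23934851, which encodes histones made mainly in male germ cells, and no peak covered any part of that interval in any library. Only 4.2% of the 100-base words in their 2 kb windows occurred again in the genome. Hist1h1t, the testis linker histone (chr13:23695814-23696725, plus strand), lies within the group of 29 genes. Its single call, in diestrus control library 3, had a fold enrichment of 2.49, at percentile 1.22 of that library, and a summit 928 bases from its 5′ end. Hist1h2aa carries the same kinds of promoter element as Hist1h2ac, with an octamer, CCAAT boxes and a TATAAA in both of the sequences above.

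The other 4 genes without a call were Hist1h2bq, Hist1h2ao, Hist1h2ap and Hist1h2br, which lie as head-to-head H2A and H2B pairs at chr13:21806612-21810944 and chr13:21833026-21837530. Every 100-base word of their windows was found elsewhere in the genome, and they were the only 4 histone genes of which this was true. The 160 promoter bases of Hist1h2bq shown above were identical to those of Hist1h2br at all 160 positions. Aligned reads from such copies cannot be placed uniquely, and how the authors' alignment and peak calling treated them is not given in the sources used here. The absence of a call there therefore cannot be told apart from the absence of assignable reads. Repetition did not always go with a missing call: Hist1h4m (84.9% of words repeated), Hist1h4n (80.7%), Hist2h3c1 (72.7%) and Hist2h3c2 (71.7%) were called in all 17 libraries, at values that are uncertain for the same reason. Of the 56 histone genes with under 30% of words repeated, 52 were called in every library.

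Hist1h1d, a linker histone of many tissues, has an annotated 5′ end at position 23553262 of chromosome 13, and the RefSeq start lies 1770 bases downstream. In 12 libraries its call was the peak of its neighbour Hist1h4f, which reached into the window. In male control libraries 1 and 3 its calls were separate peaks of 200 and 217 bases with fold enrichments of 2.93 and 2.74, and it was not called in proestrus cocaine library 2 or in either male cocaine library. The peak at Hist1h4f itself was called in all 17 libraries, with fold enrichments from 15.7 to 26.3. Of the 14 calls of Hist1h1d, 12 were thus the peak of a neighbour.

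Libraries differed in how much was called. They held from 75458 peaks (male cocaine library 2) to 157005 (diestrus cocaine library 1), and called 54.6% to 59.7% of all gene promoters. The peaks at histone genes had a median width of 1496 bases in male cocaine library 2 and up to 3132 bases in proestrus control library 3. The peak lists hold no read totals, and the read numbers that the study lists for its libraries were not used here, so that a missing call means only that no peak was called at the depth of that library. As a check of cell type, 13 of 15 markers of NAc neurons were called in every library. Of 16 glial, vascular and immune markers, 2 (Mbp and Cnp) were called in every library and 9 in none, among them Aldh1l1, Aqp4, Cx3cr1, Csf1r and Cldn5. The relative fold enrichment of these 16, summed, ranged from 1.24 to 1.63 in all groups but proestrus cocaine, where it reached 2.56. Of 18 genes of dividing cells, 17 were called in every library.

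Fold enrichment is the ratio, set by the authors' peak caller, of reads at a peak's summit to the local background, and the highest value in each window was used. Because clustered genes share peaks, the 59 genes called in all libraries had 39 separate sets of values: 23 belonged to a single gene and 16 to 2 or 3 genes. Hist1h4a, Hist1h3a and Hist1h1a, for example, share 1 peak with a median width of 5044 bases. Genes of 1 peak are not independent, and each shared value is given once. Counts out of 59 are of genes, so that a shared peak counts at each of its genes. Sets that share a peak in only some libraries are counted apart. Hist1h4i, for example, had the peak of Hist1h2ag and Hist1h2bj in 12 libraries. Within each library, 32 to 37 different peaks covered the histone genes. The nearest summit lay within 300 bases of the 5′ end, as the median over libraries, for 47 of the 59 genes, but the summit that gave the value lay within 1 kb for only 45. For the other 14 the median summit lay outside the window, in a peak that reached into it.

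Among the promoters called in a library, those of histone genes ranked above the middle. The median histone promoter stood at percentiles from 61.9 (diestrus control library 2) to 83.1 (male control library 2). Of the 59 genes, 51 averaged above percentile 50 and 20 above percentile 80. The 4 core types were alike, with median percentiles of 75.6 for H2A, 75.6 for H2B, 74.9 for H3 and 74.1 for H4, while the 4 linker genes had a median of 64.5. The linker values were not taken at the gene starts. Their median summits lay 2315 (Hist1h1a), 1322 (Hist1h1e), 1193 (Hist1h1b) and 968 (Hist1h1c) bases from the 5′ end. Hist1h1a and Hist1h1e had peaks shared with core histone genes. Within each type the genes spread more widely than the types did, from 24.8 to 92.2 in H4 and from 45.3 to 92.2 in H1. Group medians were 66.8 for the 14 called genes at chr13:21715763-21837530 and 81.8 for the 27 called genes at chr13:23531050-23764406.

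**Figure D2:**
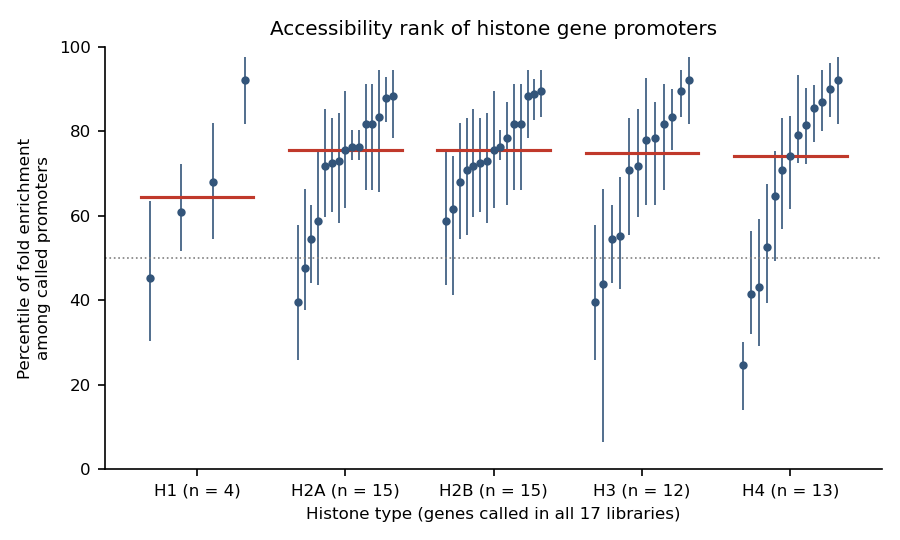
The vertical axis gives the percentile of fold enrichment among called promoters and the horizontal axis the 5 histone types. Points are the mean over 17 libraries of each of the 59 genes called in all of them, lines run from the lowest to the highest library, and red bars are the medians of the types. The type medians lie between 64.5 and 75.6, and Hist1h4j is the lowest gene at 24.8. The H1 values come from median summits at least 968 bases from the 5′ end.

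The highest values were those of Hist1h4a, Hist1h3a and Hist1h1a, encoding an H4, an H3 and a linker histone. The summit lay 121 bases before the 5′ end of Hist1h4a but 1035 bases after that of Hist1h3a and 2315 bases before that of Hist1h1a, so that the value is not one at the Hist1h1a promoter. Their shared peak had a median fold enrichment of 31.7 (range 25.9 to 42.8) and a mean percentile of 92.2. Hist1h4c, an H4 gene, followed with a median of 30.6 (22.2 to 38.4) and a percentile of 90.0, and Hist2h3b and Hist2h2bb, an H3 and an H2B gene of 1 peak, with 30.7 (22.1 to 38.2) and 89.7. The ranges of these 3 peaks overlap, and their order is not distinguished. The lowest gene, Hist1h4j, lies in the group of 18 genes and had a median of 7.21 (4.43 to 9.56), below the whole range of Hist1h4a. The next lowest were Hist1h2ab and Hist1h3b, which share a peak (10.1, range 7.16 to 14.6), Hist1h4n (10.4, range 7.81 to 12.4) and Hist1h4m (10.6, lowest library 7.49). Identical or near-identical H4 proteins are thus encoded by genes at both ends of the order.

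Some clustered genes are known also to give polyadenylated mRNAs in cells that do not divide, among them Hist1h1c, Hist1h2bc, Hist2h2be and Hist4h4. Hist1h2bc, which shares its peak with the H2A gene Hist1h2ac, had a median fold enrichment of 27.5 (23.6 to 40.3) and a percentile of 88.4. Hist2h2be had a median of 20.5 (16.1 to 25.2) and a percentile of 76.2, with the narrowest spread over libraries of these 4 (73.3 to 80.3). Its peak is shared with Hist2h2ab and Hist2h2ac, and the summit lay 1249 bases before Hist2h2be. At Hist1h1c the summit lay 968 bases after the 5′ end. Hist4h4 was at 15.5 (11.5 to 21.9) and percentile 64.6, and Hist1h1c at 14.6 (11.3 to 21.5) and percentile 60.9. The last 2 were below the median of the histone genes.

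Genes of related function were open at like frequency. Of 11 replacement histone genes, 10 were called in all libraries, with a median percentile of 69.2. H2afv (97.3) and H2afz (96.3), encoding forms of H2A.Z, and H3f3a (86.1), encoding H3.3, stood high, whereas H1f0 (35.3), a linker histone of resting cells, stood low. H3f3b, the other H3.3 gene, was called in 14. Of 16 annotated factors of histone mRNA synthesis and processing, 15 were called in all, with a median percentile of 66.1. They included Npat (90.2), the coactivator of the clusters, and Slbp (80.3), which binds the stem-loop. Zfp473 was called in none. All 12 histone chaperones were called in every library, with a median percentile of 82.1.

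No histone promoter separated cocaine from control by its calls over all libraries. Only promoters called in 4 to 13 libraries were tested, 1172 in all, and no histone gene fell in that range. By the two-sided Fisher's exact test with Benjamini-Hochberg adjustment, 0 of the 1172 (0.0%) passed an adjusted p of 0.05, the smallest adjusted p being 0.208, and 147 had an unadjusted p under 0.05. Within diestrus and within proestrus, 0 histone genes were called throughout 1 treatment and in no library of the other, against 0.239% and 0.478% of all genes. In males 1 did, against 1.94% of all genes, and it was Hist1h1d, called in 3 of 3 control and 0 of 2 cocaine libraries by the calls described above. That separation was gone with a window of 500 bp or 2 kb.

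To compare levels, each fold enrichment was divided by the median of its library over the 11290 promoters called in all libraries, and log2 values were tested with limma in 1 fit of all libraries. The median relative fold enrichment of the 59 histone genes averaged 1.32 ± 0.168 (SD, n = 3) in diestrus controls and 1.51 ± 0.136 (n = 3) after cocaine in diestrus. It averaged 1.38 ± 0.0369 (n = 3) in proestrus controls and 1.66 ± 0.147 (n = 3) after cocaine. In males it averaged 1.60 ± 0.211 (n = 3) in controls and 1.41 ± 0.0394 (n = 2) after cocaine. Cocaine libraries thus averaged higher than controls in both female stages and lower in males.

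In diestrus, 8 of the 59 histone genes, at 5 separate peaks, were higher after cocaine by limma at an adjusted p under 0.05 over all promoters, and 0 were lower. Of all promoters, 7.69% were called higher and 11.4% lower. The histone genes had a median log2 difference of 0.28, against -0.026 over all promoters, and 50 of 59 were above 0. With each of the 39 peaks counted once, the median was 0.20 and 33 were above 0. The relative values of all 3 cocaine libraries lay above all 3 controls for 16 histone genes (27.1%), against 11.5% of all promoters, and below them for 4 (6.78%), against 15.8%.

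Hist1h1c, encoding a linker histone abundant in resting cells, had relative fold enrichments of 1.09, 0.937 and 1.01 in diestrus controls 1 to 3 and of 1.32, 1.19 and 1.44 in cocaine libraries 1 to 3. The groups did not overlap, and the log2 difference was 0.38 (SE 0.10, limma adjusted p = 0.0213). The summit lay 968 bases after the 5′ end of Hist1h1c, near the edge of the window, so the value is not one at its start. At the peak of Hist1h2bb and Hist1h3c, an H2B and an H3 gene, the controls had 1.52, 1.16 and 1.34 and the cocaine libraries 1.52, 1.98 and 2.02 (log2 difference 0.46, SE 0.12, limma adjusted p = 0.0218). There cocaine library 1 stood level with the highest control. The summit lay 82 bases before Hist1h2bb and 1050 bases before Hist1h3c, whose own nearest summit had a median fold enrichment of 2.89 against 21.9. At the peak of Hist1h2ab and Hist1h3b, an H2A and an H3 gene, the controls had 0.688, 0.523 and 0.570 and the cocaine libraries 0.672, 0.819 and 1.09 (log2 difference 0.52, SE 0.16, limma adjusted p = 0.0361). Cocaine library 1 lay within the control range there, while libraries 2 and 3 lay above it, and the summit was at Hist1h2ab, 1117 bases before Hist1h3b.

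Hist1h2ah and Hist1h2bk are a head-to-head H2A and H2B pair, whose promoter stretches overlap and each hold an octamer. Their peak had 0.946, 0.797 and 1.00 in controls and 1.09, 1.11 and 1.33 after cocaine, without overlap (log2 difference 0.36, SE 0.12, limma adjusted p = 0.0411). At Hist1h4i, an H4 gene, the controls had 1.05, 1.11 and 1.22 and the cocaine libraries 1.18, 1.65 and 1.85 (log2 difference 0.45, SE 0.15, limma adjusted p = 0.0449). Again library 1 fell among the controls. In 12 of the 17 libraries the value of Hist1h4i was that of the peak of Hist1h2ag and Hist1h2bj. The exceptions were diestrus control libraries 1 and 2, diestrus cocaine library 1 and both male cocaine libraries. The highest summit of the Hist1h2ag and Hist1h2bj peak lay 1702 bases before Hist1h4i, and the summit nearest to the gene had a median fold enrichment of 16.7 against 19.2. The largest difference, 0.62 at Hist2h3c2, had an SE of 0.37 and an adjusted p of 0.217 by limma, and 71.7% of the words around this gene are repeated. In diestrus control library 1 its fold enrichment was 3.61, where that of Hist2h2aa2 was 10.3. In the other diestrus libraries it had the value of Hist2h2aa2. The lowest differences were those of Hist2h4 (-0.16), Hist3h2a (-0.16) and the peak of Hist2h3b and Hist2h2bb (-0.13), none of which passed.

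The diestrus calls rest on single libraries. No histone gene passed without cocaine library 2 or 3 or without control library 2 or 3, whereas 30 passed without cocaine library 1 and 17 without control library 1. The same held over all promoters, of which 0 were higher without control library 3 or cocaine library 2, 1 without cocaine library 3, 155 without control library 2, 778 without control library 1 and 2417 without cocaine library 1. The median difference of the histone genes stayed between 0.20 and 0.35 in these refits. When the value of the summit nearest to the 5′ end was used in place of the highest value in the window, 1 gene passed.

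**Figure D3:**
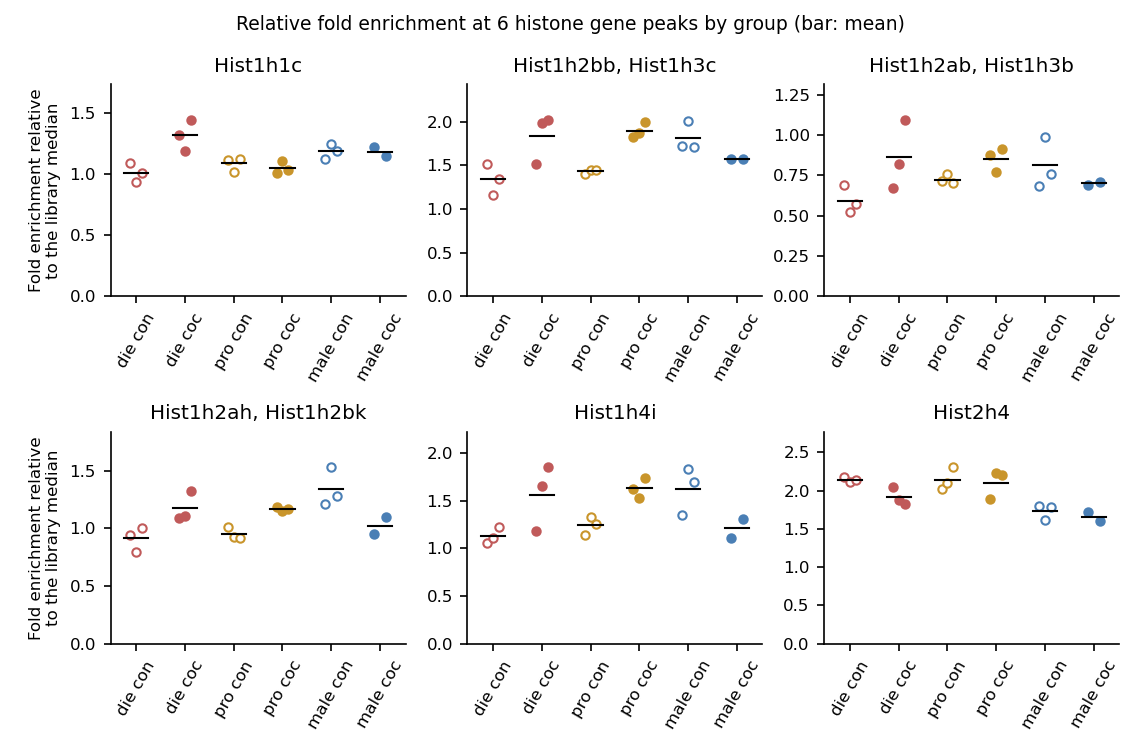
Each panel shows 1 peak, named by its genes, with fold enrichment relative to the library median on the vertical axis. The Hist1h4i panel is the exception, since its values come from more than 1 peak. Each point is a library (open, control; filled, cocaine; die, diestrus; pro, proestrus) and bars are group means. At Hist1h1c the diestrus cocaine libraries (1.19 to 1.44) lie above the diestrus controls (0.937 to 1.09), and Hist2h4 is lower in male than in female controls.

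In proestrus, 0 histone genes passed the threshold in either direction by limma, where 3 of 11290 promoters (0.0266%) did, and 28 histone genes (47.5%) had an unadjusted p under 0.05, all higher after cocaine, against 9.86% of all promoters higher and 9.16% lower. The median log2 difference was 0.28, against 0.0024 over all promoters, and 51 of 59 were above 0. With each of the 39 peaks counted once, the median was 0.28 and 33 were above 0. All 3 cocaine libraries exceeded all 3 controls for 35 of 59 histone genes (59.3%), against 16.6% of all promoters, and lay below them for 0, against 15.4%. Genes that share a peak are each counted among the 28 and the 35, which are therefore not counts of independent values. At the peak of Hist1h2bb and Hist1h3c the controls had 1.40, 1.44 and 1.45 and cocaine libraries 1, 2 and 4 had 1.83, 1.87 and 1.99, without overlap (log2 difference 0.41, SE 0.12, limma adjusted p = 0.169). At Hist1h2ah and Hist1h2bk the values were 1.01, 0.926 and 0.920 in controls and 1.18, 1.15 and 1.17 after cocaine. The largest differences were those of Hist1h2af (0.44) and of the peak of Hist1h2an and Hist1h2bp (0.43), and the lowest those of Hist2h3c2 (-0.32), Hist1h4b (-0.17) and Hist1h3g (-0.14). In 12 libraries the value of Hist1h2af was that of the Hist1h4h peak, and its median summit lay 2773 bases before Hist1h2af. In proestrus control library 1 the value was that of Hist1h3g (fold enrichment 13.6, against 21.6 at Hist1h4h). Hist1h1c differed by -0.050 (95% interval -0.26 to 0.16) in proestrus.

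In males, 0 histone genes passed by limma, where 0.664% of all promoters did, and 5 (8.47%) had an unadjusted p under 0.05, all lower after cocaine, which is no larger a share than the 11.3% of all promoters. The median difference was -0.12, against -0.012 over all promoters, and 11 of 59 were above 0. It was -0.035 without male control library 2 and -0.21 without male control library 1. With each of the 39 peaks counted once, the median was -0.12 and 8 were above 0. The 2 cocaine and 3 control libraries did not overlap for 16 histone genes (27.1%), against 44.4% of all promoters. Cocaine was lower for 15 of the 59, against 2712 of the 11290 promoters, which is a like share, and higher for 1, against 2303. Hist1h4i had 1.35, 1.83 and 1.70 in controls and 1.11 and 1.31 after cocaine (log2 difference -0.42, SE 0.17, limma adjusted p = 0.191). The next lowest were Hist1h2af (-0.40) and the peak of Hist1h2ah and Hist1h2bk (-0.39), and the highest Hist2h3c2 and Hist2h2aa2 (both 0.20) and Hist3h2ba (0.18). None of these passed. At Hist1h2af both male cocaine libraries and male control library 1 had the value of Hist1h3g. Male control libraries 2 and 3 had that of the Hist1h4h peak. The -0.40 thus sets values of different peaks against each other. Averaged over the 3 strata, 0 histone genes passed, where 2.28% of all promoters did, with a median difference of 0.14. The peak of Hist1h2ad, Hist1h2bf and Hist1h3d had the highest value (0.24) and Hist1h3g (-0.14), Hist2h4 (-0.085) and the peak of Hist2h2ab, Hist2h2ac and Hist2h2be (-0.058) the lowest.

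The cocaine difference was larger in diestrus females than in males at 11 histone genes (6 peaks) by the interaction term of the same fit, and smaller at 0, where 9.42% of all promoters were larger. This contrast was added after seeing the data. It held the peaks of Hist1h4i (difference of 0.87 between the log2 differences, SE 0.22, limma adjusted p = 0.0263), Hist1h2an and Hist1h2bp, Hist1h2ah and Hist1h2bk, Hist1h2ab and Hist1h3b, Hist1h2bb and Hist1h3c, and Hist1h2ag and Hist1h2bj. Hist1h4i had the value of Hist1h2ag and Hist1h2bj in 12 of the 17 libraries, so that these are not independent results. Neither male cocaine library was among the 12, so the 0.87 sets values of different peaks against each other. At Hist1h2ag and Hist1h2bj the difference was 0.61. In proestrus against males, 2 histone genes passed, Hist1h2ah and Hist1h2bk (0.68, SE 0.18, limma adjusted p = 0.0453), where 2.46% of all promoters were larger. Between diestrus and proestrus 0 passed, where 0.00886% of all promoters did, and Hist1h1c had the smallest adjusted p, 0.756 (difference 0.43, 95% interval 0.13 to 0.73). The 11 calls of diestrus against males were lost without male control library 2, diestrus control library 2 or 3, or diestrus cocaine library 2 or 3. Without male cocaine library 1 or 2, which leaves 1, the histone median of this contrast was 0.39. Without diestrus cocaine library 1, 28 passed. In that refit 2526 of all promoters were larger in diestrus against males, and 1174 in proestrus against males. The call of Hist1h2ah and Hist1h2bk in proestrus against males was lost in 12 of the 17 refits that left out 1 library, and 13 passed without diestrus cocaine library 1.

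**Figure D4:**
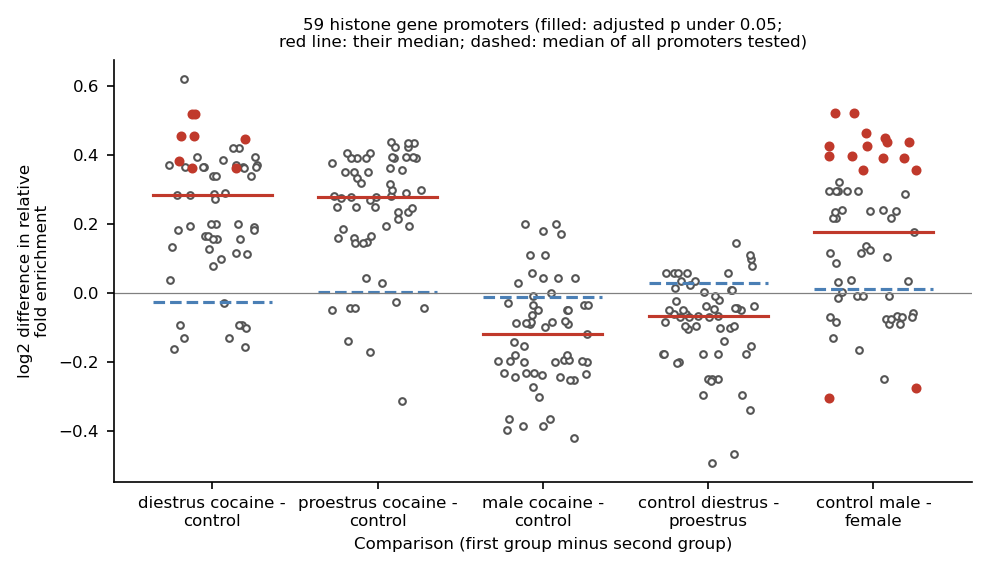
The vertical axis is the log2 difference in relative fold enrichment of each of the 59 histone gene promoters, for 5 comparisons on the horizontal axis. Filled red points passed an adjusted p of 0.05 over 11290 promoters, red lines are the medians of the histone genes and dashed blue lines those of all promoters. The histone medians are 0.28 in diestrus, 0.28 in proestrus and -0.12 in males, and filled points appear only in diestrus and in male against female controls.

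Among controls, 0 histone genes differed between diestrus and proestrus by limma, where 0.062% of all promoters did, and 2 (3.39%) were lower in diestrus at an unadjusted p under 0.05, against 4.68% of all promoters, and 0 higher, against 10.2%. The median difference was -0.068, and 0.017 without centring. The highest values were those of Hist4h4 (0.14), Hist3h2ba (0.11) and Hist3h2a (0.098), and the lowest those of Hist2h3c2 (-0.49), Hist1h4b (-0.47) and Hist1h4m (-0.34).

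Male controls exceeded female controls at 14 histone genes and were lower at 2, where 10.0% of all promoters were higher and 9.12% lower by limma. The median difference of the 59 genes was 0.18, against 0.012 over all promoters, and 40 were above 0. With each peak counted once, the median was 0.12 and 26 of 39 were above 0. The 14 genes stood at 8 peaks: Hist1h2ah and Hist1h2bk, Hist1h2bm, Hist1h4i, Hist1h2an and Hist1h2bp, Hist1h1e and Hist1h2be, Hist1h2ag and Hist1h2bj, Hist1h2bb and Hist1h3c, and Hist1h2bh and Hist1h3f. Among these, Hist1h4i had the value of Hist1h2ag and Hist1h2bj in 12 of the 17 libraries and is not independent of them. Diestrus control libraries 1 and 2, where its value was that of a separate peak, were not among the 12. At Hist1h2ah and Hist1h2bk the male controls had 1.21, 1.53 and 1.28, above the 6 female controls, which lay between 0.797 and 1.01 (log2 difference 0.52, SE 0.10, limma adjusted p = 0.00585). At Hist1h1e, a linker histone gene that shares a peak with Hist1h2be and lies 1322 bases from its summit, the male controls had 1.43, 1.79 and 1.45 and the female controls 1.00 to 1.26, without overlap (log2 difference 0.43, SE 0.11, limma adjusted p = 0.0141). At Hist1h2bm, which has a peak of its own, they had 1.31, 1.47 and 1.26 against 0.758 to 1.23 (log2 difference 0.46, SE 0.13, limma adjusted p = 0.0245).

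The 2 genes that were lower in male controls lie outside the Hist1 cluster. Hist2h4, an H4 gene, had 1.80, 1.62 and 1.78 in males and 2.02 to 2.31 in females (log2 difference -0.31, SE 0.086, limma adjusted p = 0.0230). Hist3h2ba, an H2B gene, had 1.80, 1.81 and 1.97 in males and 2.09 to 2.49 in females (log2 difference -0.28, SE 0.082, limma adjusted p = 0.0287). Neither overlapped between the sexes. Without centring on the library median, the value of Hist3h2ba was 0.012, and 33 histone genes were higher and 0 lower in males. That scaling moved the median of all promoters in this comparison from 0.012 to 0.30 (log2). Without male control library 2, 0 histone genes passed in either direction and the histone median was 0.10. In that refit 96 of all promoters were higher and 120 lower in males. Markers of neurons moved in the same comparison: of 13 tested, 6 were lower in males (among them Rbfox3, Drd1 and Drd2) and 1 was higher, and the summed relative fold enrichment of all 15 ranged from 10.8 to 11.1 in male controls and from 12.2 to 13.4 in female controls. Their part in the result was not tested.

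Base composition moved with these differences. The 2 kb windows of the histone genes had a median GC content of 49.4%, against 51.3% for all genes, and 32 of the 59 genes lay among the 20% of called promoters with the lowest GC content. Over that part of all promoters the median log2 difference was 0.082 in diestrus, 0.12 in proestrus, -0.11 in males and 0.15 for male against female controls, with the same signs as the histone medians. The relative fold enrichment of the other 2226 promoters in it, as a median, ran from 0.758 in diestrus control library 2, where the histone median was also lowest (1.15), to 0.926 in diestrus cocaine library 3 and 0.925 in male control library 2, where the histone medians were 1.55 and 1.83. When every library was centred within 20 bins of GC content, an alternative added after seeing the data, the histone median difference was 0.18 in diestrus, 0.22 in proestrus and -0.045 in males. In male against female controls it was 0.067. Then 8 histone genes (13.6%) were higher in diestrus, against 7.64% of all promoters. In male controls 5 (8.47%) were higher and 2 (3.39%) lower, against 9.04% and 7.63%, and 7 (11.9%) had a larger cocaine difference in diestrus than in males, against 8.66%.

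**Figure D5:**
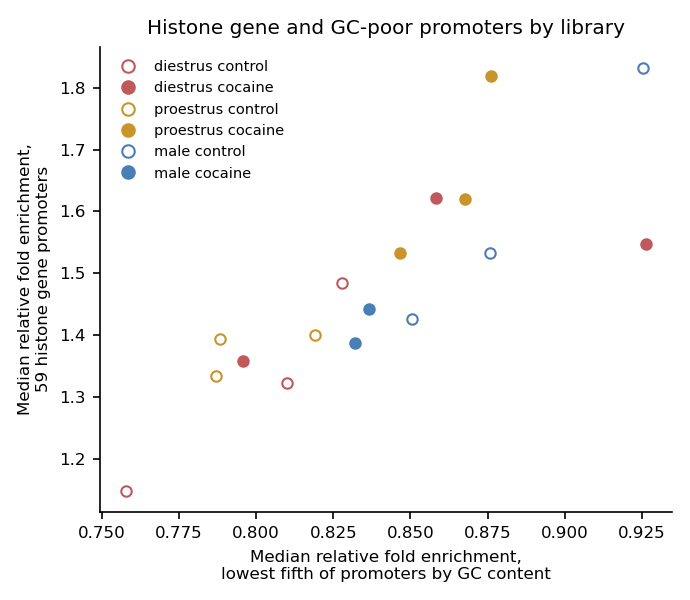
Each of the 17 points is a library (open, control; filled, cocaine). The horizontal axis is the median relative fold enrichment of the 20% of promoters with the lowest GC content, histone genes left out, and the vertical axis that of the 59 histone promoters. Libraries with high values on 1 axis tend to be high on the other, from diestrus control library 2 (0.758 and 1.15) to male control library 2 (0.925 and 1.83).

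The comparison lists were tested in the same limma fit, at an adjusted p under 0.05 over all promoters. In diestrus, 1 of 10 replacement histone genes was higher after cocaine (H2afz, log2 difference 0.37) and 1 lower (H1f0, -0.45), with a median of 0.055. Of 15 histone mRNA factors 1 was higher (Ncbp1, a cap-binding protein, 0.45) and 3 were lower (Srrt, Hinfp and Lsm10), with a median of 0.073. Of 12 chaperones 0 were higher and 2 lower (Asf1b, -0.51, and Daxx, -0.38), with a median of -0.13. Of 17 genes of dividing cells 1 was higher (Mcm3, 0.56) and 3 were lower (Ccne1, Cdt1 and E2f1), with a median of 0.041. No gene of these 4 lists passed within proestrus or within males by limma. In male against female controls, 2 replacement genes were lower (H1f0, -0.39, and H2afx, -0.36), 2 mRNA factors (Casp8ap2, 0.33, and Npat, 0.26), 1 chaperone (Chaf1b, 0.59) and 5 genes of dividing cells (Mcm3, 0.87, and Cdk1, 0.53, the highest) were higher. Of 13 neuronal markers, 4 were higher (Penk the most, 0.95) and 2 lower (Rbfox3, -0.84, and Ppp1r1b, -0.52) after cocaine in diestrus, and 1 was higher in males (Gad2, 0.57). Of the glial, vascular and immune markers only 2 could be tested, with Cnp lower in male controls (-0.49).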

How the data were processed

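ATAC-seq was performed on NeuN+ nuclei of the NAc in 17 libraries, each a pool of 3 animals. The authors trimmed adapters, aligned reads with BWA-MEM to mm10 including small contigs, and called peaks in each library with MACS2. Tool versions and options, and the treatment of reads with several alignments, are not given in the sources used here. The deposited peak lists hold, for each peak, a fold enrichment (a ratio to local background), a -log10 p and q, a score and a summit. Counts that the authors made with featureCounts and tested with DESeq2 were not used here. The peak lists hold no read totals, the read numbers that the study lists for its libraries were not used here, and the lists held 75458 to 157005 peaks.

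The 5′ end of each of 21755 protein-coding genes (GENCODE vM21) was given a window of 1 kb on each side, in which any overlapping peak was a call and the highest fold enrichment the value. For 11290 promoters called in all 17 libraries, log2 values centred on the library median were fitted with limma 3.58.1 (R 4.3.3; a mean per group, empirical Bayes with default settings) and adjusted by Benjamini-Hochberg over all promoters. Call frequency was tested by Fisher's exact test (SciPy 1.17.1). Tables were made with pandas 2.3.3 and numpy 2.4.6 in Python 3.11.15 and plots with matplotlib 3.10.9. On simulated data for the diestrus comparison, with 200 of 11290 promoters changed, 51.0% of changes of 0.5 (log2), 95.5% of 1 and 100% of 2 were recovered. Promoter sequences were those of RefSeq (GRCm38.p6), where these genes bear newer names (H2ac6 for Hist1h2ac, H4c3 for Hist1h4c, H1f1 for Hist1h1a, H1f2 for Hist1h1c, H1f6 for Hist1h1t, H2ac1 for Hist1h2aa and H2bc23 for Hist1h2bq).

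The genes, lists and tests were chosen with earlier results of these data known. Named with values were every histone gene not called in all libraries, the 5 highest and 5 lowest by mean percentile, every gene past a threshold, the 3 highest and 3 lowest differences of each planned comparison, the testis genes, and Hist1h1c, Hist1h2bc, Hist2h2be and Hist4h4. Up to 4 genes of a comparison list were to be named, and those named beyond this were chosen after their values were seen. Other windows, peak thresholds, scalings, filters, weights, a replicate block and leaving out each library were tried. Comparisons of cocaine differences between groups, centring within GC bins and any annotated start were added after seeing the data.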

Additional observations from a re-analysis of the deposited data

Results flagged for a closer look

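In 13 results the cocaine difference of a histone promoter differed between sexes by a limma test of that difference itself, added after seeing the data. Each value is the log2 difference in females minus that in males, with an adjusted p over 11290 promoters. For diestrus against males, Hist1h4i, an H4 gene, stood at 0.87 (SE 0.22, adjusted p = 0.0263). Its male control and male cocaine values came from different peaks. The peak of Hist1h2an (0.79) and Hist1h2bp (0.79) had an SE of 0.23 and an adjusted p of 0.0343. The peak of Hist1h2ah (0.75) and Hist1h2bk (0.75) had an SE of 0.18 and an adjusted p of 0.0245. The peak of Hist1h2ab (0.71) and Hist1h3b (0.71) had an SE of 0.24 and an adjusted p of 0.0484. The peak of Hist1h2bb (0.66) and Hist1h3c (0.66) had an SE of 0.18 and an adjusted p of 0.0297. The peak of Hist1h2ag (0.61) and Hist1h2bj (0.61) had an SE of 0.21 and an adjusted p of 0.0484. For proestrus against males, the peak of Hist1h2ah (0.68) and Hist1h2bk (0.68) had an SE of 0.18 and an adjusted p of 0.0453. The 2 contrasts share the male libraries, and the 13 results come from 6 peaks. With centring within GC bins 7 and 0 genes passed in diestrus and proestrus against males, and the part of base composition in the differences was not tested further. All groups held 2 or 3 libraries, and no group was tested for a single outlying library.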

How the results depend on the processing

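The number of histone promoters called in every library was 59, 58 with a window of 500 bp and 65 with 2 kb, and 59 when any 1 library was left out. A window of 2 kb takes in peaks of neighbouring genes. Those of Hist1h2bq and Hist1h2ao include the start of Hist1h4m, and those of Hist1h2ap and Hist1h2br the start of Hist1h4n. The higher count therefore does not show that more histone promoters were open. The promoter lost in males, Hist1h1d, was counted 0 times with a window of 500 bp or 2 kb, with peaks of -log10 q of at least 5, or with an equal number of strongest peaks, and 1 time in every refit without 1 library. No promoter passed the Fisher test under any alternative.

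Counts of histone genes past the threshold depended on the settings. The 8 genes in diestrus became 1 with the nearest summit, 4 without centring and 36 with array weights, and 0 to 30 when 1 library was left out. The 0 genes in proestrus became 25 with array weights and 0 to 2 without 1 library, and the 0 genes in males became 1, 5 and 3 with the nearest summit, without centring and with array weights. For the mean over strata, the nearest summit gave 1 and array weights 29 (0 to 16 without 1 library). For diestrus against proestrus controls array weights gave 1. The 16 genes of male against female controls became 33 without centring, 25 with array weights and 7 with GC bins (0 to 17 without 1 library). The 11 genes of diestrus against males became 6 with 2 kb, 3 with the nearest summit, 7 with quantile normalization, 39 without centring, 7 in promoters called in at least 12 libraries, 36 with array weights and 7 with GC bins (0 to 28 without 1 library). The 2 genes of proestrus against males became 0 with 2 kb, the nearest summit or GC bins, 22 without centring and 33 with array weights (0 to 13 without 1 library). The cause of these changes was not tested. The number of all promoters past the threshold moved as well. In diestrus, 0 were higher without diestrus control library 3 and 2417 without diestrus cocaine library 1. The counts above thus describe the settings and are not results particular to the histone genes. Array weights ran from 0.197 (diestrus cocaine library 1) to 3.92 (diestrus cocaine library 2). Where a library left out reduced the male cocaine group to 1, that library was assumed to vary like the other groups.

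Signs turned in 4 results for single genes. With the nearest summit Hist1h3c stood at -0.79 in male against female controls and at -2.10 in diestrus against males, and Hist1h2ab at -0.92 in the latter. Without centring Hist3h2ba stood at 0.012 in male against female controls. Over all alternatives the histone median kept its sign in diestrus (0.18 to 0.42), proestrus (0.22 to 0.35), males (-0.41 to -0.035) and male against female controls (0.067 to 0.46). It took both signs for diestrus against proestrus controls (-0.15 to 0.017; above 0 without centring and, at 0.011, without diestrus control library 2) and for the cocaine difference of diestrus against proestrus (-0.086 to 0.073).

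With the replicate number of the titles as a block, 4 histone genes passed in diestrus and 0 in both comparisons of cocaine differences with males. The numbers do not pair the libraries, since same-numbered libraries correlated between -0.39 and 0.073 in their deviations.

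Depth was not used, values are ratios rather than counts, groups held 2 or 3 libraries, and genes of 1 peak are not independent.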
